A study of Saccharomyces cerevisiae with 96 samples.

Results

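The small (40S) subunit of the cytosolic ribosome of Saccharomyces cerevisiae is built from proteins encoded by the RPS genes. The 56 genes from RPS0 to RPS31 were taken by their systematic names from the 6701 genes of the deposited expression table. They encode 32 proteins, of which 14 belong to the head of the subunit and 18 to its body and platform. For 24 proteins there are 2 gene copies, named A and B, and for 8 there is a single gene. The members lie on 14 chromosomes and 36 of them carry an intron. The mRNA of 12 wild type strains, and of the 12 populations derived from them by 300 generations of growth on xylulose, was sequenced during logarithmic growth on YPD (glucose) and on YP-xylulose. The strains are YPS1009, T73, T7, Y12, YJM269, PW5, CLIB215, CLIB324, CBS7960, EC1118, BY4743 and SK1, numbered 1 to 12 in that order. Each was evolved as 1 population, not a clone, and the xylulose medium also held unconverted xylose. The 96 libraries were deposited as 48 columns, 1 per strain and condition, in 4 groups (glucose wild type, xylulose wild type, glucose evolved and xylulose evolved), so n = 12 in every group and the strain is the replicate.

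The small subunit binds mRNA and the initiator tRNA and reads the codons. Its body and platform hold much of the mRNA path, and its head swivels while mRNA and tRNAs move on. The RPS genes are among the most strongly transcribed genes of a growing yeast cell, and their mRNAs are known to decrease together in starvation and stress and to increase together in rapid growth, through the promoter factor Rap1, the activators Fhl1 and Ifh1 and the TORC1-dependent regulator Sfp1. Most copies of a pair stem from the ancient duplication of the yeast genome and encode nearly the same protein.

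The numbers of the evolved columns did not all match the strains. Over 59 strain-typical genes, whose deviations from the condition mean correlated above 0.8 between the sugars, evolved 1 to 4 resembled the wild type of their own number, whereas evolved 5 to 8 resembled wild type 9 to 12 and evolved 9 to 12 resembled wild type 5 to 8. Pearson's r to the best match was 0.575 to 0.923, and for evolved 5 to 12 the r to the wild type of the same number was -0.402 to 0.16. URA3 and LEU2, which BY4743 lacks, were lowest in wild type 11 (10.0 RPM, the floor) and in evolved 7. Evolved populations are therefore called by number only, and for the results that pair evolved with wild type the summed levels and the counts of called proteins are also given with evolved 5 to 8 and 9 to 12 exchanged. Group means, and ratios between the sugars within the wild type or within the evolved populations, do not depend on this pairing. A depth could be read from 17 columns and was 253336 to 1114086 reads, with a median of 680944. At that depth the median member value of 1522 RPM (reads scaled to a total of 1000000) stands for 1036 reads, which gives a counting error of 3.11% (1 SD).

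The regions before RPS27A, RPS27B, RPS19A and RPS19B are shown as examples of pairs whose copies differed in their response to the sugar. The RPS9 copies, which differed more than those of RPS19 on average, are not shown. Each is 300 bases long, from base 400 to base 101 before the start codon in the S288c reference (R64, RefSeq), and capitals mark matches to the Rap1 motif, here the letters ACA, CC and ACA with 1 and 2 free bases between them, searched on both strands. RPS27A lies at chrXI:158213-158512 on the plus strand and RPS27B at chrVIII:148770-149069 on the minus strand, and neither holds a match. RPS19A lies at chrXV:92951-93250 and RPS19B at chrXIV:63044-63343, both on the minus strand, with matches that start 274 and 387 bases before the start codon.
RPS27A: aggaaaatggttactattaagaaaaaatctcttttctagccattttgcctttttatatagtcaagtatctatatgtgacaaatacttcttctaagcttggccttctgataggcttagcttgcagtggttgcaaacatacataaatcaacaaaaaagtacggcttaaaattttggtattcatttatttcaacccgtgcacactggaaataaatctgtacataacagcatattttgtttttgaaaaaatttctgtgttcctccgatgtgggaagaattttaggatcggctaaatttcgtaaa
RPS27B: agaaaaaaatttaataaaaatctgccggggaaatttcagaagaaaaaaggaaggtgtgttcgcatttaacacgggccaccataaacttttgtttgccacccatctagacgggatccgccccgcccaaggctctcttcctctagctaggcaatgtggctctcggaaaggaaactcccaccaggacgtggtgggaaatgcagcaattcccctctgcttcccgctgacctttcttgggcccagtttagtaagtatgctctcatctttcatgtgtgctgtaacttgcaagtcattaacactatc
RPS19A: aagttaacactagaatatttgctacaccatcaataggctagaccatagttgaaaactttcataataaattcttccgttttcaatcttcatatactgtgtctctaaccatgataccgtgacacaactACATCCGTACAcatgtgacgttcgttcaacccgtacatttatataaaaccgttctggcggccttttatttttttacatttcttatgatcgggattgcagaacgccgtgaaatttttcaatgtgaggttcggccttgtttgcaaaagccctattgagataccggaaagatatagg
RPS19B: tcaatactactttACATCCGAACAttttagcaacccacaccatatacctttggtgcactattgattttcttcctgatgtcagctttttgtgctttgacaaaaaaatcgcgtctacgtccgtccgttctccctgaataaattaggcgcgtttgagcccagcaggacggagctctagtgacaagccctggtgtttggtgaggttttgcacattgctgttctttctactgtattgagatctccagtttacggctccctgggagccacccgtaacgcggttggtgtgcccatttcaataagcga

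Within 500 bases before the start codon the Rap1 letters were present at 19 of the 56 small subunit genes (33.9%), at 23 of 81 large subunit genes (28.4%) and at 143 of 5914 genes of the table on nuclear chromosomes (2.42%). The motif of the factor Abf1, the letters TC and ACG with 7 free bases between them, was present at 42.9% of small subunit genes, 42.0% of large subunit genes and 46.1% of all genes. In the printed regions the copies of a pair were alike, since neither RPS27 copy held the Rap1 letters and both RPS19 copies did. A match describes letters in a window and not a bound site.

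Summed small subunit mRNA made up 3.28% to 13.3% of the RPM total over the 48 columns. RPS20 and RPS15 had the lowest mean RPM in each of the 4 groups. By RPM over all 48 columns, the copies of each protein summed, the highest were RPS23 (6791 RPM), a protein of the decoding centre, RPS31 (6078 RPM), which is made as a fusion with ubiquitin, and RPS12 (5778 RPM), a protein of the beak of the head. The lowest were RPS20 (594 RPM), a head protein, RPS15 (1407 RPM), a head protein needed late in assembly, and RPS7 (1803 RPM), a body protein. RNA was fragmented before its poly(A) ends were selected, so RPM need not scale with gene length. Per kilobase of coding sequence the highest levels were those of RPS30 (18572 RPM per kb), RPS23 (15505 RPM per kb) and RPS21 (13606 RPM per kb), and the lowest those of RPS20 (1622 RPM per kb), RPS7 (3147 RPM per kb) and RPS15 (3280 RPM per kb). RPS20 was thus lowest on both scales. Across the 48 columns the level of RPS20 also followed the sum of the other 31 proteins least closely (Pearson r = 0.579), against 0.694 for RPS28, the next lowest, and up to 0.959 for RPS24. These r values describe columns that share strains, sugars and a fixed total.

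The first comparison asked how the wild type strains responded to xylulose. Summed over the 56 genes, small subunit mRNA in the glucose wild type made up 8.49% to 13.3% of the RPM total of 1000000, with a median of 11.6%. In the xylulose wild type it made up 7.37% to 12.0%, with a median of 9.51%. The groups overlapped, but within each strain the level on xylulose was the lower one, in 12 of 12 strains, with a mean log2 ratio of -0.29 ± 0.19 (SD, n = 12). The drop ran from -0.03 in wild type 11 to -0.58 in wild type 1. Because each column is a bulk culture scaled to a fixed total, a lower share of cells with these mRNAs and a lower amount per cell cannot be told apart. Large subunit mRNA went along, at -0.29 ± 0.18, so that the small subunit share of all ribosomal protein mRNA was 38.0% ± 0.975 on glucose and 38.1% ± 0.652 on xylulose.

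**Figure D1:**
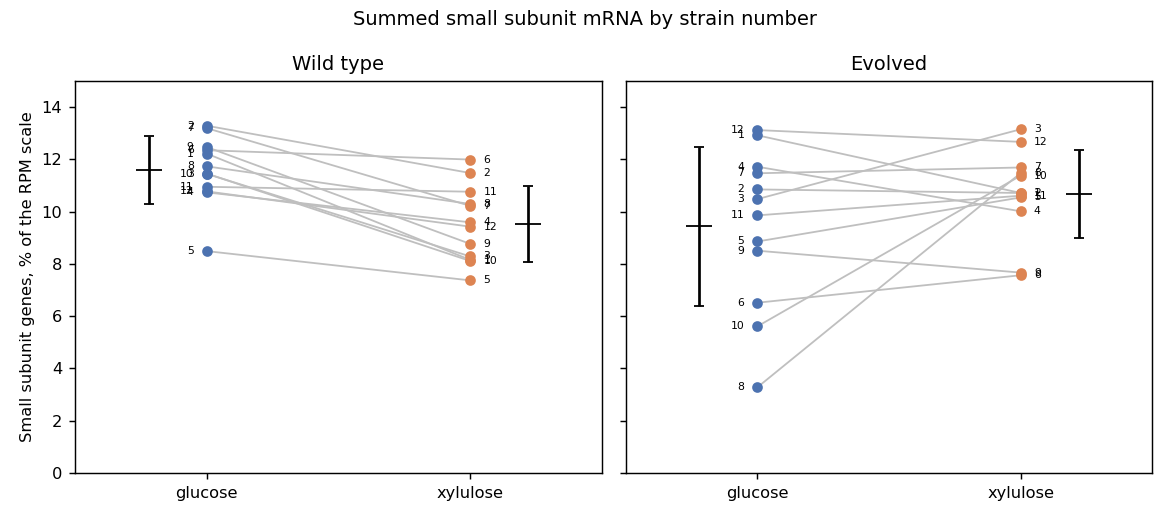
Summed small subunit mRNA as a percentage of the RPM total, by sugar, in the 12 wild type strains (left) and the 12 evolved populations (right). Points are columns labelled with the strain number, grey lines join the sugars of a number, and bars are the mean and SD of a group (n = 12). All 12 wild type lines go down, while evolved 8 and 10 go up steeply from glucose levels of 3.28% and 5.61%.

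Of the 32 proteins, 21 fell and 1 rose in the wild type on xylulose (limma on differences within strains, Benjamini-Hochberg adjusted p under 0.05), where 9.27% of all 5105 rows tested were called lower and 30.6% higher. Here and below a protein stands for the summed mRNA of its gene copies, and protein amounts were not measured. The median log2 ratio of the 32 proteins was -0.28, against 0.32 over all rows. Of the head proteins 9 of 14 fell, and of the body and platform proteins 12 of 18. The drop was largest for RPS31 (YLR167W). It measured 5927 to 9089 RPM on glucose (median 7996) and 3306 to 6105 RPM on xylulose (median 4694). The groups overlapped only at their edges, with all 12 strains lower on xylulose, a log2 ratio of -0.71 ± 0.071 (SE) and an adjusted p of 1.16e-07 in limma. RPS3 (YNL178W), which lines the mRNA entry channel, went from 2108 to 3971 RPM (median 3435) to 1214 to 2856 RPM (median 2176). It was lower in 12 of 12 strains, with a log2 ratio of -0.62 ± 0.081 and an adjusted p of 4.28e-06. Its neighbour at the entry, RPS2, was at 2515 to 4174 RPM (median 3384) on glucose and at 1634 to 3100 RPM (median 2413) on xylulose, lower in 12 of 12 strains (log2 -0.53 ± 0.077, adjusted p of 1.47e-05). For both proteins the ranges of the sugars overlapped and wild type 5 held the lowest value on either sugar. RPS14, a platform protein, was the 1 protein of the 32 whose groups did not overlap, where 0.529% of all rows tested were lower on xylulose without overlap. It was at 4853 to 6379 RPM on glucose and at 3190 to 4709 RPM on xylulose (log2 -0.51 ± 0.065, adjusted p of 2.23e-06), and it is named here after its values were seen.

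RPS20 (YHL015W), the lowest of the proteins by mRNA, went the other way. It measured 313 to 949 RPM (median 533) on glucose and 405 to 936 RPM (median 731) on xylulose in the wild type. The ranges overlapped, 9 of 12 strains were higher on xylulose, and the log2 ratio was 0.34 ± 0.132 with an adjusted p of 0.047 in limma. This call was lost when any of 8 strains was left out, and the log2 ratio was 0.15 to 0.40 over the alternatives, with adjusted p of 0.0174 to 0.384. The next in order were RPS12 at 0.11 ± 0.087 (adjusted p = 0.345, limma) and RPS27, a zinc-binding protein of the body, at 0.07 ± 0.11 (adjusted p = 0.634, limma). Their sign was not fixed: scaling by the median of ratios, which moves the median of all rows from 0.32 to 0.13, gave -0.07 for RPS12 and -0.11 for RPS27. Under that scaling 27 proteins fell and none rose, where 669 of the 5105 rows tested were called lower and 1104 higher.

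In the evolved populations the same ratio had another spread. Small subunit mRNA made up 3.28% to 13.1% of the RPM total on glucose, with a median of 10.2%, and 7.57% to 13.2% on xylulose, with a median of 10.7%. It was higher on xylulose in 7 of 12 populations, and the mean log2 ratio was 0.25 ± 0.60 (SD, n = 12). This mean rested on evolved 8 and evolved 10, whose glucose columns were the lowest of their group at 3.28% and 5.61%. Without both numbers, which were singled out once their values were known, the mean was 0.02 ± 0.20. The glucose column of evolved 8 also differed in other respects: its listed values added up to 88.84% of the total against 97.13% or more in every other column, and its 32 proteins spread most around their usual proportions (SD 0.378 on the log2 scale, against 0.255 in the next column and a median of 0.185). The glucose column of evolved 10 was 1 of the 17 from which a depth could be read, and that of evolved 8 was not. The part of these differences in the results was not tested.

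Of the 32 proteins 5 rose on xylulose in the evolved populations and none fell, where 24.2% of all rows tested were called higher and 15.7% lower. At an unadjusted p under 0.05, for which no share of all rows is given, there were 10 higher and none lower. Leaving out numbers 8 and 10 gave 5 higher and 2 lower, RPS31 (log2 -0.36) and RPS14 (log2 -0.25). No share of all rows is given for that setting. RPS20 rose most. It measured 125 to 490 RPM (median 384) on glucose and 571 to 968 RPM (median 718) on xylulose in the evolved populations. These groups did not overlap, as in 3.57% of all rows tested in this direction, all 12 populations were higher on xylulose, and the log2 ratio was 1.09 ± 0.156 (SE) with an adjusted p of 8.43e-06 in limma. RPS12 was at 1692 to 6384 RPM (median 4966) on glucose and at 4607 to 9407 RPM (median 7354) on xylulose. Its groups overlapped but all 12 populations were higher on xylulose (log2 0.79 ± 0.18, adjusted p of 0.00139). RPS0, a protein of the body near the mRNA exit, was at 707 to 4041 RPM (median 2672) on glucose and at 2614 to 4482 RPM (median 3453) on xylulose, higher in 11 of 12 populations (log2 0.57 ± 0.176, adjusted p of 0.0132). RPS27 (log2 0.54) and RPS21 (log2 0.49) were the others that rose. At the low end stood RPS31 at -0.09 ± 0.192, RPS14 at -0.03 ± 0.17 and RPS28 at -0.02 ± 0.134, none of them past the threshold in limma (adjusted p of 0.741 or more).

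**Figure D2:**
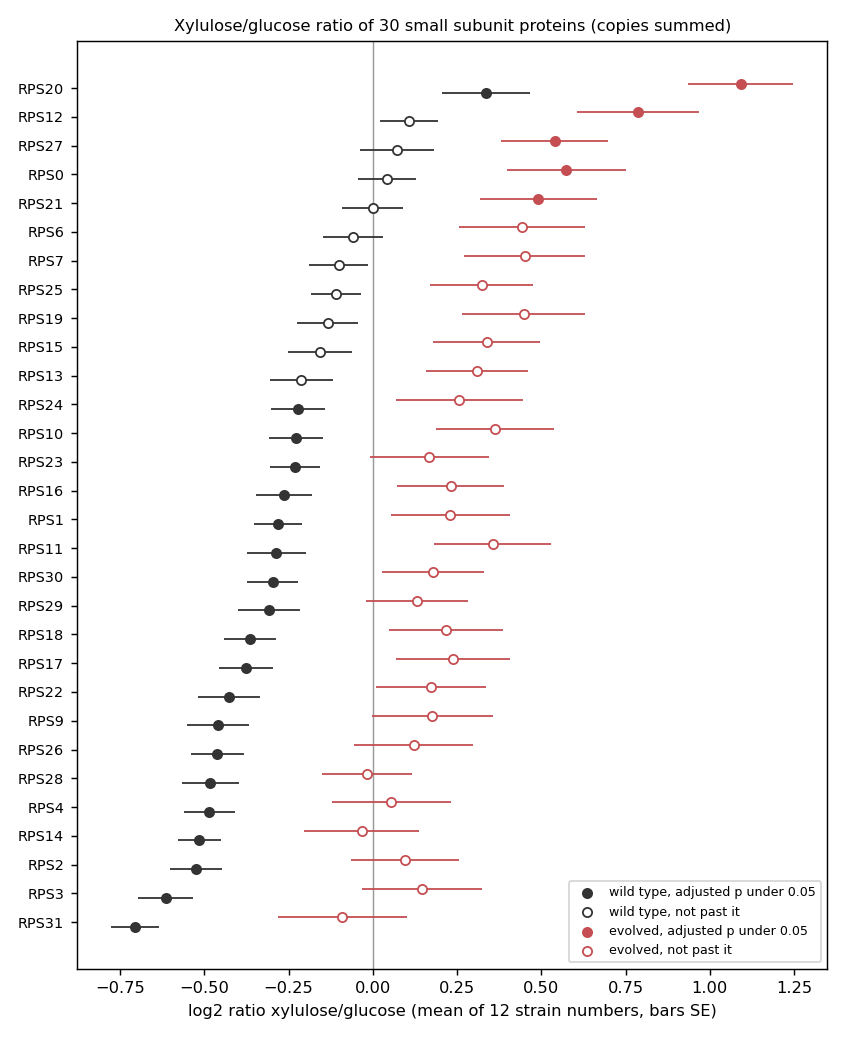
Log2 ratio xylulose/glucose of 30 small subunit proteins (copies summed) in the wild type (grey) and the evolved populations (red). Points are means over 12 strain numbers, bars are SE, filled points have an adjusted p under 0.05, and the proteins are ordered by the wild type. The order runs from RPS31 at -0.71 to RPS20 at 0.34 in the wild type, and every evolved point lies to the right of the wild type point of the same protein.

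The change of the ratio with evolution was tested as the difference of the differences. All 32 proteins lay above 0, from 0.40 for RPS23 to 0.76 for RPS3, with a median of 0.54 against -0.20 over all rows. All 32 had an unadjusted p under 0.05, for which no share of all rows is given. Past the threshold for the adjusted p were 4 of 32, where 0.392% of all rows tested were called higher and 4.98% lower. They were RPS3 (0.76 ± 0.195, adjusted p of 0.0213), RPS20 (0.76 ± 0.205, 0.0299), RPS12 (0.68 ± 0.183, 0.0289) and RPS2 (0.62 ± 0.181, 0.0459), all single genes, by limma with adjustment over all 5105 rows. The wild type and evolved medians of RPS3 were 3435 and 2628 RPM on glucose and 2176 and 2585 RPM on xylulose, so its evolved level was the lower one on glucose and the higher on xylulose. The ratio was higher after evolution in 11 of 12 numbers for RPS3, RPS12 and RPS2 and in 10 of 12 for RPS20, with the same tallies when the evolved numbers were exchanged. RPS29, a zinc-binding head protein, and RPS25, a head protein used in cap-independent initiation, were with RPS23 the lowest (0.44 ± 0.19 and 0.43 ± 0.172, not past the threshold). With the evolved numbers exchanged as the strain-typical genes have them, 14 proteins were past the threshold, the 4 above among them. No share of all rows is given for that pairing.

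The number of proteins called for this change hung on which number was left out, that is 1 wild type strain and 1 evolved population. By the strain-typical genes these differ in strain for numbers 5 to 12. It was 0 without number 3, 1 without number 1 or number 7, 2 without number 5, 8 or 10, 8 without number 4, and 3 to 5 without any 1 of the others. Without numbers 8 and 10 together it was 2 (RPS3 at 0.50 and RPS12 at 0.46). The summed level changed by 0.54 ± 0.61 (SD, n = 12), in 11 of 12 numbers upward, with 2.00 in number 8, and by 0.30 ± 0.23 without numbers 8 and 10. With the evolved numbers exchanged it changed by 0.54 ± 0.58, again upward in 11 of 12.

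The direct comparisons of evolved with wild type on each sugar gave no call among the 32 proteins. On xylulose the summed level was higher in 8 of 12 numbers, at 0.16 ± 0.37 (SD, n = 12), and in 9 of 12 with numbers exchanged, at the same mean with an SD of 0.23. All 32 log2 ratios were above 0, the highest being those of RPS12 (0.28 ± 0.137), RPS28 (0.27 ± 0.119), a head protein near the mRNA exit, and RPS10 (0.27 ± 0.127), a head protein near the mRNA entry. The lowest were those of RPS27 (0.03), RPS14 (0.07) and RPS20 (0.07). None was past the threshold in limma, with the labelled or the exchanged numbers. At that threshold 0% of all rows tested were called higher and 0.842% lower with the labelled numbers. At an unadjusted p under 0.05, for which no share of all rows is given, there were 2, both higher.

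On glucose the sign was the opposite one. The summed level was lower after evolution in 8 of 12 numbers, at -0.38 ± 0.61 (SD, n = 12), with -1.84 in number 8. Without numbers 8 and 10 it was -0.17 ± 0.36, and with the evolved numbers exchanged it was -0.38 ± 0.58, lower in 7 of 12, with -1.72 as the lowest value. All 32 log2 ratios were below 0 and none was past the threshold in limma. At that threshold 0.0588% of all rows tested were called lower and 2.29% higher. At an unadjusted p under 0.05, for which no share of all rows is given, there were 17, all lower. RPS20 was the lowest at -0.68 ± 0.191 (adjusted p = 0.0617, limma), lower in 10 of 12 numbers, at 313 to 949 RPM before evolution and 125 to 490 RPM after it. Its ranges overlapped, and it passed the threshold with the evolved numbers exchanged (adjusted p = 0.0336, limma), without the replicate block (0.0487) and without number 4 or number 11, with adjusted p of 0.0329 to 0.304 over all alternatives. RPS9, a body protein that binds early in assembly, followed at -0.56 and RPS3 at -0.53, and the ratios nearest 0 were those of RPS28 (-0.19), RPS25 (-0.22) and RPS23 (-0.25).

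Copies of a pair contributed unequal amounts of mRNA. Coding sequences of copies were 84.34% to 99.16% identical, and reads of 50 bases can be shared where they match: 72.05% of the 50-base words of RPS6 occur in the other copy, whereas the median over the 48 copies was 2.631%. Values of single copies are therefore uncertain, those of RPS6 among them. The log2 ratio of A over B, averaged over all columns, was largest for RPS28 (6.47), RPS14 (3.60) and RPS9 (-3.07), in which copy B gave 1.12%, 7.64% and 89.33% of the mRNA. It was nearest to 0 for RPS30 (-0.04), RPS29 (0.16) and RPS10 (0.21). In 5 of the 24 pairs 1 copy gave at least 75%. RPS28B, whose mRNA is known to be destabilized by its own protein, was the single member with blank cells, 6 of 48, and measured at most 103 RPM.

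**Figure D3:**
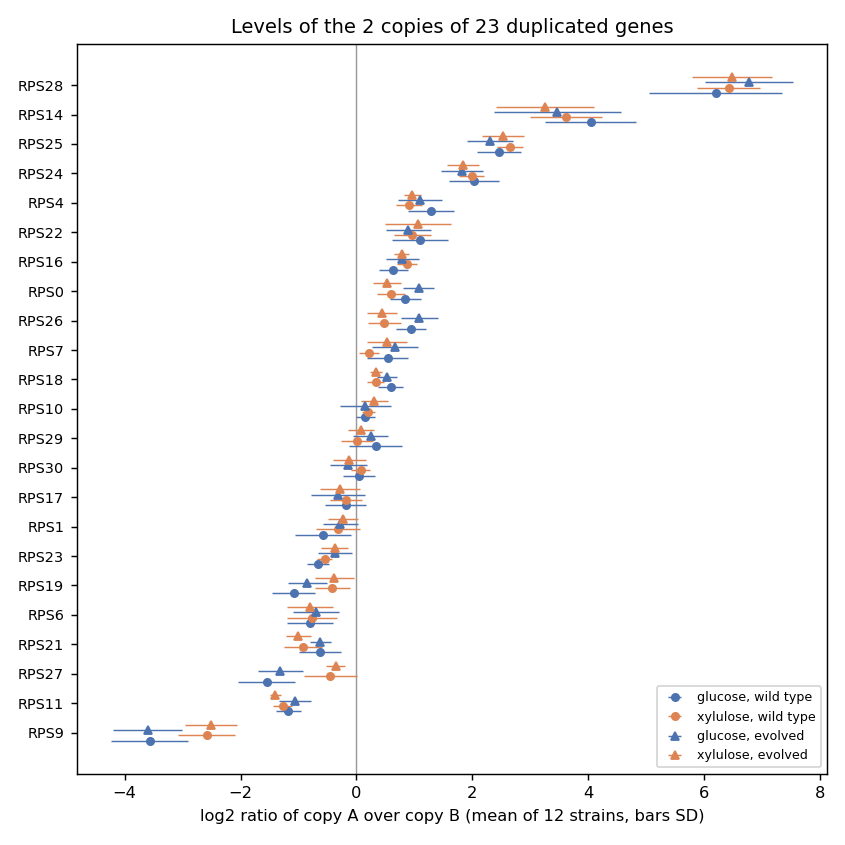
Log2 ratio of copy A over copy B for 23 duplicated genes in each of the 4 groups (circles wild type, triangles evolved, blue glucose, orange xylulose). Points are means over 12 columns and bars are SD. RPS28, RPS14 and RPS9 lie farthest from 0, and for RPS27, RPS19 and RPS9 the orange points lie to the right of the blue points.

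The ratio of the copies moved with the sugar in some pairs, and not always toward the same copy. In the wild type 21 of 24 pairs changed by less than 0.5 on the log2 scale. The 3 that changed most were RPS27, RPS9 and RPS19, in each toward copy A on xylulose. Other pairs moved toward copy B. RPS26 changed by -0.46 ± 0.39 (SD) in the wild type (10 of 12 strains) and by -0.64 ± 0.33 in the evolved populations (11 of 12). RPS0 changed by -0.25 ± 0.41 (8 of 12) and by -0.54 ± 0.21 (12 of 12). These 2 pairs are named here after their values were seen. RPS27A (YKL156W) over RPS27B (YHR021C) went from -1.55 ± 0.49 (SD, n = 12) on glucose to -0.45 ± 0.46 on xylulose, a change of 1.10 ± 0.48 in the same direction in 11 of 12 strains. In the evolved populations the change was 0.95 ± 0.43, again in 11 of 12. Copy A itself rose in the wild type, from 278 to 793 RPM (median 540) on glucose to 475 to 1292 RPM (median 1034) on xylulose. It was higher in 11 of 12 strains, with a log2 ratio of 0.80 ± 0.153 and an adjusted p of 0.000277 in limma on single genes. Copy B fell over the same shift, from 974 to 3753 RPM (median 1558) to 951 to 2004 RPM (median 1300), with a log2 ratio of -0.30 ± 0.107 and an adjusted p of 0.0312. The copies thus moved in opposite directions, which left the sum at 0.07.

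RPS19, a head protein needed for the processing of the 18S rRNA precursor, followed the same pattern. RPS19A (YOL121C) over RPS19B (YNL302C) went from -1.08 ± 0.37 to -0.42 ± 0.30 in the wild type, a change of 0.66 ± 0.40 in the same direction in 11 of 12 strains, and by 0.47 ± 0.21 in 12 of 12 evolved populations. RPS19B fell in the wild type (log2 -0.38 ± 0.095, adjusted p of 0.00325, limma), while RPS19A stood at 0.28 ± 0.122 (adjusted p = 0.0678). In the evolved populations RPS19A rose (0.73 ± 0.191, adjusted p of 0.00428) and RPS19B stood at 0.26 ± 0.169 (adjusted p = 0.234). RPS9A over RPS9B went from -3.57 ± 0.67 to -2.59 ± 0.49 in the wild type, a change of 0.98 ± 0.93, and by 1.09 ± 0.63 in the 12 evolved populations. RPS9A was at 139 to 1370 RPM on glucose, the highest value being wild type 1, the 1 strain in which this ratio went down on xylulose (-1.49).

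**Figure D4:**
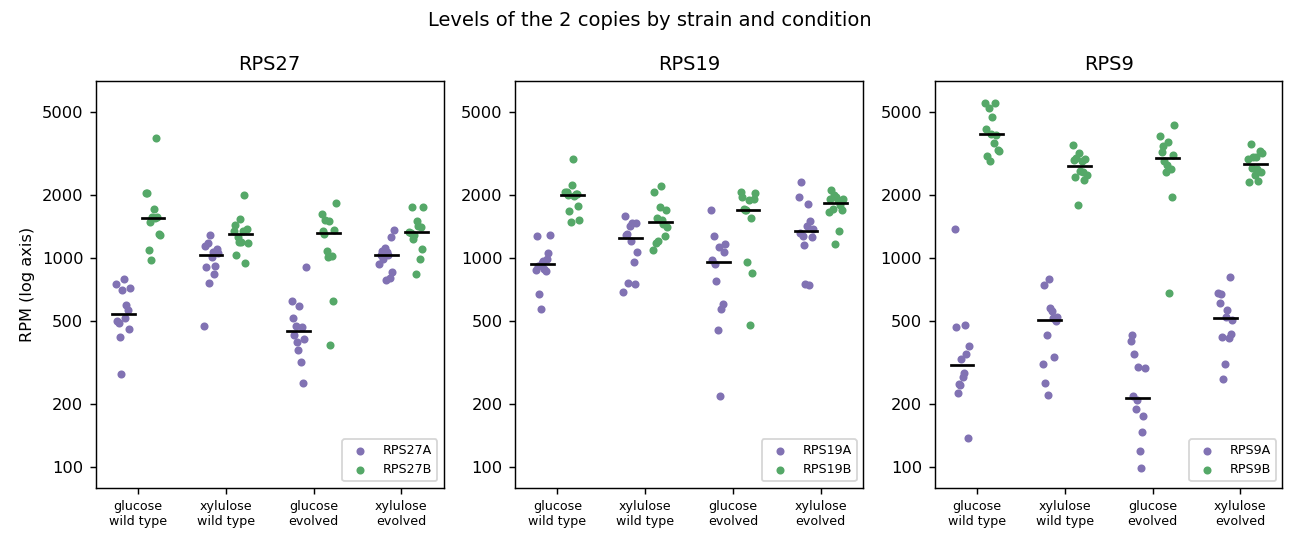
Levels in RPM (log axis) of the A copies (purple) and B copies (green) of RPS27, RPS19 and RPS9 in each group. Points are the 12 columns of a group and black lines are medians. The median of RPS27A goes from 540 to 1034 RPM between glucose and xylulose in the wild type while that of RPS27B goes from 1558 to 1300 RPM.

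With copies counted singly, 28 of the 56 genes fell and 2 rose on xylulose in the wild type (RPS27A and RPS20), where 9.38% and 30.5% of 5129 genes were called. In the evolved populations 10 rose and none fell, where 24% and 15.5% of genes were called, and at an unadjusted p under 0.05 there were 17 higher and none lower. Those that rose were RPS27A (1.16), RPS9A (1.15), RPS20 (1.09), RPS0B (0.92), RPS12 (0.79), RPS19A (0.73), RPS21B (0.63), RPS7B (0.53), RPS26B (0.53) and RPS11B (0.46). For the change with evolution 8 were past the threshold, where 0.487% of genes were called higher and 4.95% lower: the 4 single genes named above and RPS0B (0.72), RPS11B (0.72), RPS22A (0.68) and RPS18A (0.61). Between evolved and wild type limma called no single copy on xylulose, where 0% of genes were called higher and 0.838% lower. Nor was any called on glucose, where 2.28% were called higher and 0.0585% lower. At an unadjusted p under 0.05 there were 5 on xylulose, all higher, and 27 on glucose, all lower. No share of all genes is given for that p.

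RPS14B (YJL191W) stood out in 1 population. It was at 2948 RPM on glucose and at 1904 RPM on xylulose in evolved 12, and at 80.4 to 661 RPM in the other 46 columns. In wild type 8, which evolved 12 resembled over the strain-typical genes, it was at 481 and 379 RPM, and in wild type 12 at 306 and 298 RPM. RPS14A was at 5068 and 4021 RPM in evolved 12, within the range of the other evolved columns. The gene lies at chrX:73787-74611 in R64. Against the median of the other 11 evolved columns RPS14B was 2.84 higher on glucose and 2.30 higher on xylulose on the log2 scale. The 12 nearest genes of the table differed by -1.13 to 0.64 on glucose and by -0.66 to 0.49 on xylulose. RPS22A, which lies on the opposite strand and ends with 298 bases between it and RPS14B, differed by 0.64 and 0.44. The Rps14 protein is known to repress the splicing of RPS14B mRNA, and the table gives no value for spliced and unspliced forms. The 2 columns come from 1 population, so no test was made, and the gene is named here after its values were seen.

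**Figure D5:**
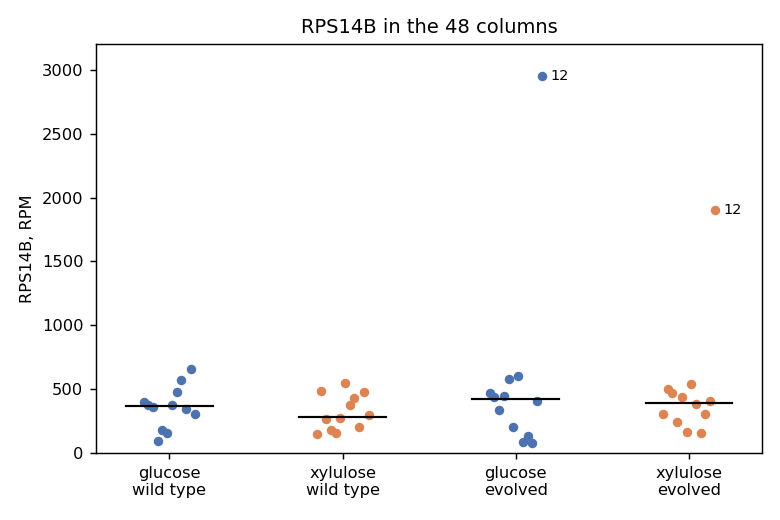
RPS14B in RPM in the 48 columns by group, with the median of each group as a black line. Evolved 12 lies at 2948 RPM on glucose and 1904 RPM on xylulose, and all other points lie at 661 RPM or below.

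Other genes of the pathway were counted from fixed lists. Of 81 large subunit genes 44 fell and 2 rose on xylulose in the wild type, where 9.27% of all rows tested were called lower and 30.6% higher. After evolution 22 of the 81 (27.2%) rose and 1 fell, where 24.2% of all rows were called higher and 15.7% lower, so the share that rose was close to that of all rows. For the change with evolution 9 (11.1%) were called higher and none lower, where 0.392% of all rows tested were called higher and 4.98% lower. At the level of single genes none was called between evolved and wild type on either sugar. At an unadjusted p under 0.05 in limma there were 9 on xylulose, all higher, and 42 on glucose, all lower. No share of all rows is given for that p. ASC1, the RACK1 protein of the head, fell in the wild type (log2 -0.55 ± 0.09, adjusted p of 4.95e-05, limma), as did STM1, which clamps idle ribosomes (-0.45 ± 0.103, 0.00156).

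Of 16 genes for assembly of the subunit 1 rose and 1 fell on xylulose in the wild type, where 30.6% of all rows were called higher and 9.27% lower. After evolution 11 rose and none fell, where 24.2% and 15.7% were called. PNO1, a factor on the platform of the precursor, rose in the wild type (log2 0.87 ± 0.316, adjusted p of 0.0334) and KRR1, an early assembly factor, fell (-0.64 ± 0.247, 0.0445). In the evolved populations the highest were TSR1 (1.31), a GTPase-like factor that shields the precursor, RRP12 (1.11), an export factor, BUD23 (0.82), a methyltransferase of 18S rRNA, and SLX9 (0.79). TSR1 was at 15.5 to 41.5 RPM on glucose and 21.95 to 112 RPM on xylulose there, and the ranges overlapped. For the change with evolution none of the 16 passed the test in limma, and the median log2 value of the 16 was 0.27. At an unadjusted p under 0.05, for which no share of all rows is given, there were 2, both higher.

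Of the regulators, RAP1, FHL1, IFH1 and SFP1 passed the threshold in none of the comparisons (adjusted p of 0.0532 or more in limma), and FHL1, IFH1 and SFP1 had group means of 12.1 to 30.5 RPM, close to the floor of 10 RPM. ABF1 rose on xylulose before evolution (log2 1.51 ± 0.247) and after it (1.49 ± 0.208). The kinase gene SCH9, a target of TORC1, rose in the wild type (1.60 ± 0.288). It stood at 0.43 ± 0.181 in the evolved populations (adjusted p = 0.0659, limma). SCH9 was also called for the change with evolution (-1.18 ± 0.337, adjusted p of 0.0414, limma). The lowest glucose wild type value of ABF1 and of SCH9 was 10.0 RPM, the floor. Of 7 listed regulators tested, 2 (28.6%) were called higher on xylulose before evolution, against 30.6% of all rows. After evolution 1 (14.3%) was called higher, against 24.2% of all rows. These shares were thus no larger than those of all rows. The polyubiquitin gene UBI4 rose in the wild type (0.97 ± 0.271) and fell in the evolved populations (-0.62 ± 0.19), with a change of -1.59 ± 0.329 (adjusted p of 0.00467). Between evolved and wild type it rose on glucose (0.91 ± 0.242, adjusted p of 0.0458, limma) and stood at -0.68 ± 0.263 on xylulose (adjusted p = 0.283). For the change RPS31, the ubiquitin fusion of the small subunit, stood at 0.62. It was not past the threshold with the labelled numbers, but it passed with the evolved numbers exchanged (adjusted p = 0.0299, limma). No value of UBI4 is given for that pairing. The 4 genes for chaperones of single small subunit proteins were called in no comparison by limma, with 0 to 2 of them at an unadjusted p under 0.05 in each. No share of all rows is given for that p.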

How the data were processed

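Per the labels and the study's methods, total RNA was fragmented, poly(A) ends were selected, and the authors mapped 50 base reads with Bowtie to S288c (R64), removed rRNA reads, collapsed duplicates by molecular identifier, scaled each library to 1000000 (RPM) and combined the 2 repeats as a mean. What was deposited by the authors is log2 RPM, left blank under 10 RPM. How the repeats entered a column is unknown: 17 of 48 columns keep the whole-read steps of 1 library (85% of values under 60 RPM within 0.004 RPM of a step). Among these 17 were the glucose columns of evolved 10 and evolved 12 and both columns of wild type 1. They were spread unevenly over the groups, and the xylulose evolved group held only number 1. The counted region and strand are not given in the sources used here. No column was left out. Counts cover all members, and 2 proteins are not reported here by name.

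Blanks were set to 10 RPM and genes with a mean under 10 RPM (blanks as 0) left out. Copies were summed on the linear scale. limma 3.58.1 (lmFit, eBayes with trend, R 4.3.3) was fitted to the log2 differences within strain numbers over 5105 rows (5129 with copies single), adjusted by Benjamini-Hochberg, with a threshold of 0.05, after tests on simulated data. Summed levels and copy ratios were described with no test. The numbers come from the labels, which give the same strain to a wild type and an evolved number. Tried besides were unfiltered rows, a 50 RPM minimum, added pseudocounts (1, 10, 30), scaling by the median of ratios or without ribosomal protein genes, single copies, no replicate block, exchanged evolved numbers and each number left out. The members and lists were chosen with earlier results of these data known. Named were the 3 highest and 3 lowest proteins of each comparison and by level, the 3 pairs with the largest, smallest and most changed copy ratio, members with blanks, listed genes that passed (up to 4) and RAP1, FHL1, IFH1 and SFP1. Large subunit genes are given as counts. For ratios between the sugars within the wild type or within the evolved populations, p-values measure the spread between strains. For the change and for evolved against wild type, with the labelled numbers, they measure the spread between labelled pairs. By the strain-typical genes many of these pairs join different strains.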

Additional observations from a re-analysis of the deposited data

Results flagged for a closer look

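The ratio between xylulose and glucose differed between wild type and evolved columns for 4 of the 32 proteins, by the test of the difference itself (limma, adjusted p under 0.05, labelled pairing). The difference, evolved minus wild type on the log2 scale, was 0.76 for RPS3, 0.76 for RPS20, 0.68 for RPS12 and 0.62 for RPS2. Over the alternatives RPS3 was past the threshold in 20 of 22, RPS12 in 17 and RPS20 in 15. The 3 ranged from 0.46 to 0.93, with adjusted p of 0.0114 to 0.126.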

How the results depend on the processing

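Of 648 alternative values of single proteins 598 kept direction and side of the threshold, 27 lost the call, 6 gained it and 17 changed sign. Of 304 alternative counts and summed levels 271 stayed close. All summed levels counted as close because the rule allowed a shift of 1 SD over the numbers, a wide limit. The evolved xylulose/glucose ratio (0.25, SD 0.60) became 0.02 without numbers 8 and 10. That of the wild type (-0.29, SD 0.19) became -0.47 with median-of-ratios scaling. Higher proteins in the wild type (1) became 0 with median-of-ratios scaling, with scaling without ribosomal protein genes, and without numbers 8 and 10, and 2 with single copies. Higher proteins in the evolved populations (5) became 3 with median-of-ratios scaling and 10 with single copies, and lower ones (0) became 2 without numbers 8 and 10, a setting added once the data had been examined. For the change with evolution (4) the count was 0 with no filter, 7 scaled without ribosomal protein genes, 8 with single copies, 14 with evolved numbers exchanged and 2 without numbers 8 and 10. Called higher over all rows were 6 of 6155 with no filter, 34 of 5105 with that scaling and 25 of 5129 with single copies. No share of all rows is given for settings that leave out or exchange numbers or drop the block. On glucose (0 lower after evolution) exchanging the numbers gave 1.

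Without the replicate block, that is with no pairing by number, the wild type had 0 proteins higher and 19 lower on xylulose, the count for the change was 6 and the count of proteins lower on glucose after evolution was 1 (RPS20).

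Leaving out 1 number at a time gave 0 to 1 higher in the wild type, 4 to 8 higher in the evolved populations (8 without number 1), 0 to 8 for the change and 0 to 1 lower on glucose after evolution.

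The sign changed only near 0. In the wild type RPS12 was -0.074 and RPS27 -0.11 with median-of-ratios scaling, and -0.00278 and -0.038 scaled without ribosomal protein genes. In the evolved populations that last scaling gave 0.027 for RPS14 and 0.044 for RPS28, and leaving out 1 number gave -0.17 to 0.024 for RPS14 and -0.091 to 0.045 for RPS28. On xylulose RPS27 after evolution was -0.019 without numbers 8 and 10 and -0.018 to 0.10 with 1 number left out. The cause of these shifts was not tested. Depth limits single copies near the floor of 10 RPM, chiefly RPS28B.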
